A study of Mus musculus with 96 samples.

Results

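Slc17a6, Slc17a7 and Slc17a8 encode the vesicular glutamate transporters VGLUT2, VGLUT1 and VGLUT3, and were taken by their gene symbols from a count table, so they are 3 of its 24054 genes. The table holds 96 single neurons of the preoptic area, the part of the hypothalamus known for regulating body temperature, from C57BL/6N mice of 2 to 3 months. Each neuron was recorded by whole-cell patch clamp, drawn into a glass pipette and sequenced by Smart-seq2, a method that amplifies the RNA of 1 cell, with Nextera XT libraries. The study sought marker genes of temperature-sensitive neurons. By label there were 10 silent temperature-sensitive cells, 18 silent temperature-insensitive cells, 21 warm-sensitive cells, 5 cold-sensitive cells and 24 temperature-insensitive cells without the silent label. The main comparison was of the 28 silent cells with the 50 others of known class, called firing cells here because they lack the silent label; the labels do not say how silence was scored. A further 18 cells have an unknown class and entered no comparison. All cells share strain, age range, tissue, recording and chemistry; no unrecorded cell is among them.

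A vesicular glutamate transporter moves glutamate from the cytoplasm into synaptic vesicles, driven by the proton gradient that the vacuolar ATPase builds across the vesicle membrane. A neuron that carries one can release glutamate as its transmitter. VGLUT2 is the common form in hypothalamus, thalamus and brainstem, VGLUT1 is the main form of cerebral cortex and hippocampus, and VGLUT3 is found in scattered neurons, many of which also release another transmitter. GABA neurons, the other large class of the preoptic area, make GABA with the enzymes encoded by Gad1 and Gad2 and load it with the transporter encoded by Slc32a1.

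In the GENCODE M21 annotation of mm10, Slc17a6 (ENSMUSG00000030500.6) lies on the plus strand of chromosome 7, from 51622006 to 51671119, with 5.399 kb of exons. Slc17a7 (ENSMUSG00000070570.5) lies on the same strand of chromosome 7, from 45163949 to 45176142, and Slc17a8 (ENSMUSG00000019935.16) on the minus strand of chromosome 10, from 89574020 to 89621253. The 250 bases before 1 RefSeq start of each gene (GRCm38.p6) are shown because the 3 genes, close relatives in protein function, were read at very different levels in the same cells. They cover chr7:51621580-51621829 on the plus strand for Slc17a6, chr7:45163671-45163920 on the plus strand for Slc17a7 and chr10:89621250-89621499 on the minus strand for Slc17a8, and capitals mark each CG pair.
Slc17a6: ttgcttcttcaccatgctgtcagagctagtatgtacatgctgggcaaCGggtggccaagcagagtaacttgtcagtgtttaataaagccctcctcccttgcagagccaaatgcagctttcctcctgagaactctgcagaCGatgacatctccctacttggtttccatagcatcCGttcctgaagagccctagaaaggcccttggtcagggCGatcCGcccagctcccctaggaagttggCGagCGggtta
Slc17a7: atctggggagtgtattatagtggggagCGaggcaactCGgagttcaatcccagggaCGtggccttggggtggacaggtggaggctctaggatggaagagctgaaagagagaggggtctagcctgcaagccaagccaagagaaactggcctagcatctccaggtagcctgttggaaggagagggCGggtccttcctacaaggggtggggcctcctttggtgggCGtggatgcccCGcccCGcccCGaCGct
Slc17a8: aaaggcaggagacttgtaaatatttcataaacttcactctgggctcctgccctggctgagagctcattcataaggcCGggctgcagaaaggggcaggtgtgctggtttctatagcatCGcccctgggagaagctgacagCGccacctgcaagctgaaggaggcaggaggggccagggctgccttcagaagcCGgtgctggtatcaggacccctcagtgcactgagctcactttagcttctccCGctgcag
The Slc17a6 stretch held 7 CG pairs at a GC content of 53.2%. The Slc17a7 stretch held 9 pairs at 61.2%, and the Slc17a8 stretch 5 pairs at 57.2%. Over 32851 such windows of the RefSeq table the medians were 6 pairs and 52.4%, so the 3 stretches were close to the typical window in CG pairs. TATAAA, searched on both strands, was in none of the 3 and in 12.4% of all windows. RefSeq gives 2 such windows for Slc17a6 and for Slc17a8, of which 1 is shown, and 1 for Slc17a7. The bases after the start matched the transcript for Slc17a8 and not for Slc17a6 or Slc17a7. The RefSeq start used is not the start of the GENCODE gene for any of the 3, so these are windows upstream of RefSeq starts only.

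A cell had 465167 to 3660726 counts (median 1279600), and values are given as counts scaled to a cell total of 1000000 (CPM). A gene counted as detected in a cell at 10 CPM or more, which was 4.65 to 36.6 counts depending on the cell. Rn45s, the ribosomal RNA precursor, took a median of 59.3% of counts in silent cells and 58.2% in firing cells, and 67.7% in warm-sensitive against 45.4% in insensitive cells. Median counts outside Rn45s were 366060 in silent and 576304 in firing cells. Silent cells had a median of 3369.5 genes with a count, firing cells 3719. Of 12 pan-neuronal markers, such as Snap25 and Tubb3, a cell had 3 to 12 at 10 CPM, and 89 of 96 cells had at least 6. The labels do not tie cells to animals, so a group is 1 sample here and no test was run. All intervals are exact at 95%, Clopper-Pearson for shares of cells and Poisson for summed counts. They cover counting error only and leave out variation between animals, and reads without molecular identifiers are not independent molecules.

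Among the 3 transporters, Slc17a6 was read across the cells and the other genes were almost unread. Summed over the 96 cells, Slc17a6 had 13690 counts, a level of 18.5 CPM per kb of exon. Slc17a8 had 25 counts, 0.039 CPM per kb. Slc17a7 had 4 counts, 0.0054 CPM per kb. On this length-corrected scale Slc17a6 was between Gad1, at 30.2 CPM per kb, and Slc32a1, at 5.22 CPM per kb.

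Slc17a6 split the cells into a high and a low group with few in between. It was at 0 in 31 cells, had a count but stayed under 10 CPM in 30 cells and reached 10 CPM in 35 cells. The 35 detected cells had a median of 190 CPM, 23 of them were at 100 CPM or more and 13 at 300 CPM or more, up to 1043 CPM. The 10 cells with the most counts held 67.2% of all Slc17a6 counts, and the 30 low cells together held 63 counts, 0.460%. The cell just above the threshold was warm-sensitive cell 11 at 12.6 CPM, and the next detected cell had 31.9 CPM. The cells just below it were a cell of unknown class at 7.97 CPM and insensitive cell 17 at 6.22 CPM. The threshold thus fell in the sparse range between the groups of values.

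The 30 low cells were mostly cells with GABA genes, and so were the cells at 0. In 20 of the 30 low cells the value was a single count. Of the 30 cells, 23 had Gad1 or Gad2 at 10 CPM or more, as did 24 of the 31 cells at 0 and 19 of the 35 cells with Slc17a6 detected. The reverse was also seen, since Gad1 had a count under 10 CPM in 37 cells, 20 of which had Slc17a6 detected. In all, 24 cells had Slc17a6 detected and Gad1 not, and the rest of the 24 had no Gad1 count. Neither pattern is thus particular to cells with low counts. Whether such low counts are the cell's own RNA or come from outside it was not tested.

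Slc17a6 was detected in a smaller share of silent than of firing cells. The counts were 4 of 28 silent cells, 14.3% (interval 4.03 to 32.7%), against 22 of 50 firing cells, 44% (30 to 58.7%). The 2 intervals overlap narrowly. The 4 silent cells were silent sensitive cell 8 at 387 CPM, silent sensitive cell 1 at 191 CPM, silent insensitive cell 1 at 83.7 CPM and silent insensitive cell 16 at 31.9 CPM, and the other 24 silent cells were at 4.30 CPM or less. Per cell, Slc17a6 had a lowest value of 0, a median of 0 and a highest of 387 CPM in silent cells, against a lowest of 0, a median of 3.31 and a highest of 844 CPM in firing cells. The ranges overlap, because 12 of the 50 firing cells were also at 0 and a few silent cells were high. A single count was enough for 13 of 28 silent cells, 46.4%, and for 38 of 50 firing cells, 76%, so the order of the groups was the same at either threshold.

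**Figure D1:**
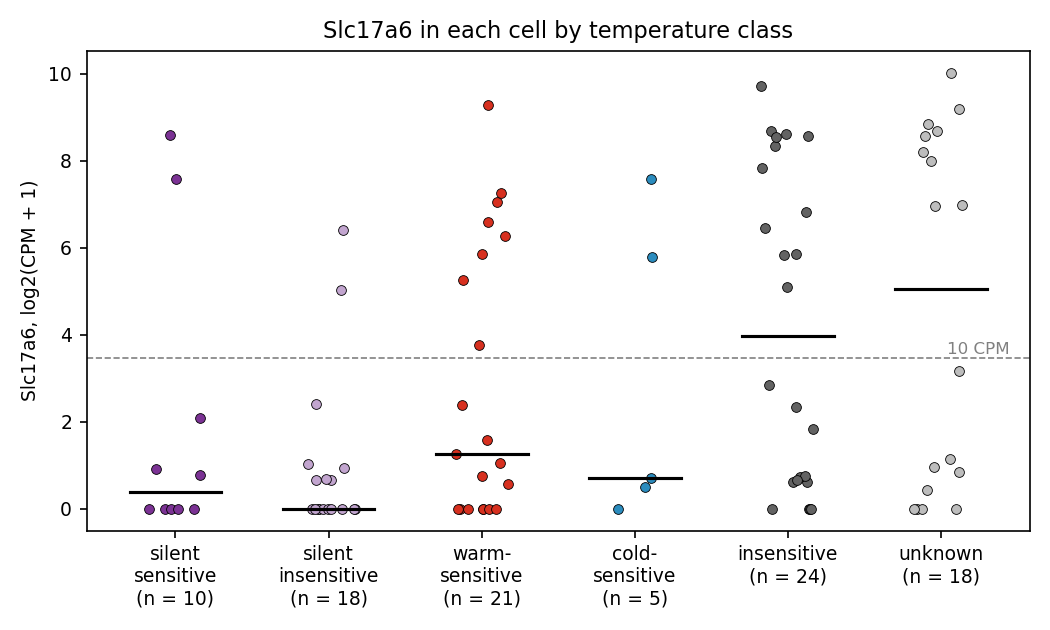
Slc17a6 in each of the 96 cells as CPM (vertical axis, log2(CPM + 1)), by temperature class; each point is 1 cell, the horizontal bars are medians and the dashed line marks 10 CPM. Of the silent cells, 2 of 10 sensitive and 2 of 18 insensitive ones reach the threshold, against 12 of 24 insensitive cells without the silent label.

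The mean of log2(CPM + 1) was 1.35 in silent and 3.49 in firing cells, a difference of -2.14. This scale understates the change of low genes. Genes were compared where they reached 10 CPM in 25% or more of either group's cells, and in 3 or more of them. Of 3481 such genes, called eligible here, 15.3% were lower in silent cells by at least 1 on this scale and 2.73% higher. Slc17a6 was eligible through the firing cells alone, where it is higher, so its place among these genes is not read. The median eligible gene differed by -0.29. The Slc17a6 value relative to that median, -1.84, carries the same limit and is not read as support. Leaving out any 1 cell gave -2.40 to -2.01.

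Summed counts gave the same direction but rested more on single silent cells. Slc17a6 had 23.8 CPM (22.2 to 25.4) over the silent cells and 94.5 CPM (92.3 to 96.7) over the firing cells. Without silent sensitive cell 8 the silent value was 12.9 CPM, and without silent sensitive cell 1 it was 15.5 CPM. The firing value was at least 82.5 CPM without either of the 2 cells with the most counts. The order was the same at equal depth: with each cell thinned to 100000 counts the shares were 17.9% in silent and 44% in firing cells. Thinned to 100000 counts outside Rn45s, which left out 1 warm-sensitive cell, the shares were 28.6% in silent and 59.2% in firing cells. At 100000 counts 10 CPM is 1 count, while in the full cells it was 4.65 to 36.6 counts. The last totals also leave out Rn45s, so these shares are not the same measure as those of the full cells.

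**Figure D2:**
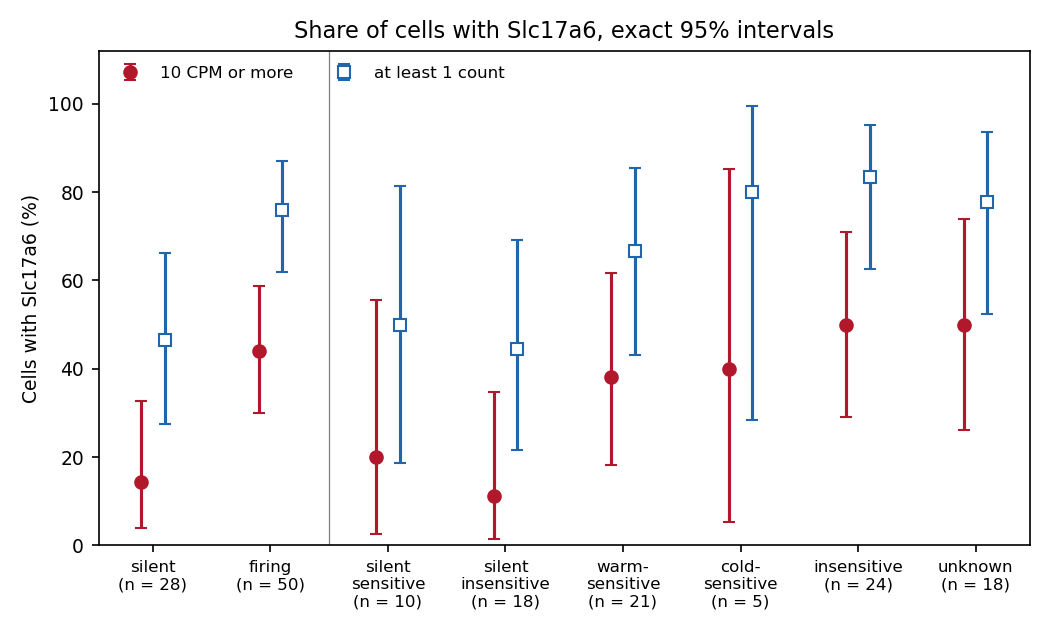
Share of cells (vertical axis, %) with Slc17a6 at 10 CPM or more (filled circles) and with at least 1 count (open squares), for silent and firing cells and for each class; bars are exact 95% intervals. The share at 10 CPM is 14.3% in silent and 44% in firing cells, and the intervals of single classes are wide.

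Cell titles carry a letter from A to H, whose meaning the labels do not give. Silent and firing cells occurred together under 7 letters, A to G. Within them the silent share with Slc17a6 was below the firing share under 6 letters and equal under letter A, at 2 of 3 silent and 4 of 6 firing cells. Letters B, C, D and E were pooled because no silent cell under them had Slc17a6, so their none of 18 silent cells follows from that choice. Of the firing cells under them 13 of 25 had Slc17a6. Under letter F it was in 1 of 3 silent and 3 of 8 firing cells, and under letter G in 1 of 4 silent and 2 of 7 firing cells. Under A, F and G the silent and firing shares were thus equal or close. Averaged within letters the difference was -2.21. Without letter A the plain difference of means was -2.35, with shares of 8% in silent and 40.9% in firing cells. Letter A was left out after the data were seen and is the letter with equal shares. The wider gap thus partly follows from that choice and is not read as support.

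**Figure D3:**
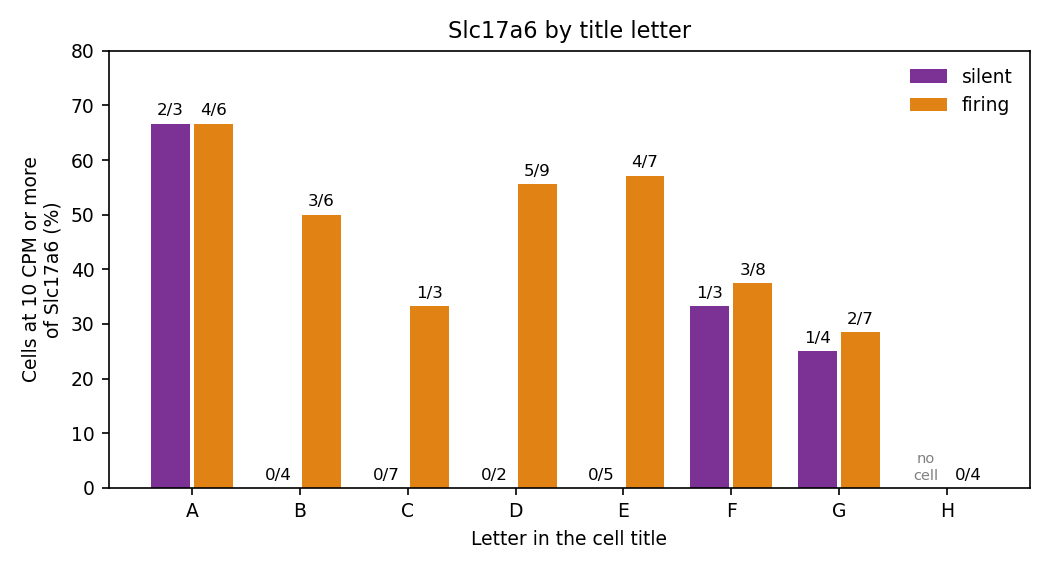
Share of silent cells (left) and firing cells (right of each pair) with Slc17a6 at 10 CPM or more (vertical axis, %) under each letter of the cell titles, with cell numbers. Letters B to E are those under which no silent cell, of 18, reaches 10 CPM, and letter H holds no silent cell. Under A, F and G the silent and firing shares are equal or close.

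The same direction was seen among insensitive cells alone. Slc17a6 was detected in 2 of 18 silent insensitive cells, 11.1% (1.38 to 34.7%), against 12 of 24 insensitive cells, 50% (29.1 to 70.9%). The lowest, median and highest values were 0, 0 and 83.7 CPM in silent insensitive cells, against 0, 19.8 and 844 CPM in insensitive cells. The ranges overlap, but the highest silent insensitive cell was below the upper quartile of insensitive cells, 252 CPM. The difference of means was -3.21, and -3.36 within letters. Of 4836 eligible genes 37.6% were lower by at least 1, and Slc17a6 was eligible through the insensitive cells alone. Summed counts gave 5.43 CPM (4.51 to 6.50) in silent insensitive and 136.5 CPM (132.9 to 140.2) in insensitive cells. Silent insensitive cell 1 held most of the silent sum, which was 1.94 CPM without it. Silent insensitive cells had a median Rn45s share of 55.0% against 45.4% in insensitive cells, 362457 counts outside Rn45s against 761928, and 3668.5 genes against 4022. Cells with over 75% of counts in Rn45s were 4 of the silent insensitive and none of the insensitive cells. The difference of Slc17a6 without those 4 cells was -3.40 and thinned to 100000 counts outside Rn45s -3.39. Gad1 had the opposite sign in the same cells, at 66.7% in silent insensitive and 50% in insensitive cells, a difference of 1.53.

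Among sensitive cells the data did not settle a direction. Slc17a6 was detected in 2 of 10 silent sensitive cells, 20% (2.52 to 55.6%), and 8 of 21 warm-sensitive cells, 38.1% (18.1 to 61.6%). The lowest, median and highest values were 0, 0.356 and 387 CPM in silent sensitive cells, against 0, 1.40 and 617 CPM in warm-sensitive cells. The difference of means was -0.81, but 0.49 within letters, and the summed counts, 55.3 CPM in silent sensitive and 41.9 CPM in warm-sensitive cells, also had the other sign. The silent sensitive sum was 27.0 CPM without cell 8 and 35.5 CPM without cell 1, and the warm-sensitive sum was 24.1 CPM without warm-sensitive cell 5. Of 2444 eligible genes 13.9% were lower and 30.8% higher by at least 1, and the median gene differed by 0.45. Slc17a6 was eligible through the warm-sensitive cells alone, so its place among these genes is not read. Whether the difference by silent label is unlike in sensitive and insensitive cells could not be tested with 1 sample a group.

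Warm-sensitive cells also had less Slc17a6 than insensitive cells, by no more than the typical gene. The shares were 38.1% of 21 warm-sensitive and 50% of 24 insensitive cells, and the means differed by -1.39. Of 4601 eligible genes 67.6% were lower by at least 1 in warm-sensitive cells, and the median gene differed by -1.36, so Slc17a6 differed by -0.030 relative to it. Within letters the difference was -0.63. The Rn45s share was higher in warm-sensitive cells, as given above, the median number of genes was 3244 in warm-sensitive and 4022 in insensitive cells, and the part of these in the result was not tested. Summed counts gave 41.9 CPM (39.5 to 44.4) in warm-sensitive cells and 136.5 CPM in insensitive cells.

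The 5 cold-sensitive cells had Slc17a6 at 54.3, 0.41, 190, 0 and 0.64 CPM. Cold-sensitive cells 1 and 3 were high and the other 3 were near 0. Of 4644 eligible genes 35.4% were lower in cold-sensitive than in insensitive cells by at least 1. Slc17a6 was eligible through the insensitive cells alone. The share was 40% (5.27 to 85.3%) in cold-sensitive cells against 50% in insensitive cells, and the difference of means was -1.28. Any single cold-sensitive cell moved it by more than 1.5 times, from -2.45 without cell 3 and -2.0 without cell 1 to -0.73, -0.68 and -0.56 without cells 5, 2 and 4. The summed level was 66.3 CPM (61.1 to 71.7) in cold-sensitive cells and 13.5 CPM without cell 3. Warm-sensitive minus cold-sensitive cells gave -0.11, and leaving out single cells gave -0.84 to 1.06, so no order of these classes was resolved.

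By share of cells with Slc17a6 the classes ran from silent insensitive at 11.1% and silent sensitive at 20% to warm-sensitive at 38.1%, cold-sensitive at 40% and insensitive at 50%. The mean log2 values, 0.99, 2.00, 2.81, 2.92 and 4.2 in that order, ranked them alike. Every pair of neighbours in this order had overlapping intervals of the share. Silent sensitive minus silent insensitive cells gave 1.01, or 0.27 with silent sensitive cell 8 left out and 0.39 with silent sensitive cell 1 left out; Slc17a6 was not eligible there. In the 18 cells of unknown class Slc17a6 ran from 0 to 1043 CPM with a median of 65.8 CPM, and 9 of them were at 10 CPM or more. Of the 8 unknown cells under letter H, 6 had it, while none of the 4 firing cells under H did.

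Slc17a7 and Slc17a8 never reached 10 CPM. For each, 0 of 96 cells allows a share of up to 3.77% by the exact interval, or 3.13% by a limit of 3 cells. All 4 counts of Slc17a7 came from silent insensitive cell 14, at 3.36 CPM, a cell with no Slc17a6 count and with Gad1 at 601 CPM. Slc17a8 had 10 counts (6.10 CPM) in silent sensitive cell 1, 13 counts (4.75 CPM) in cold-sensitive cell 3, and 1 count each in silent sensitive cell 7 and insensitive cell 8. Both cells with several Slc17a8 counts also had Slc17a6, at 191 and 190 CPM. They were unlike in their GABA genes, since Gad2 was at 463 CPM in silent sensitive cell 1 and at 1.46 CPM in cold-sensitive cell 3. Summed Slc17a8 was 0.86 CPM (0.43 to 1.53) in silent sensitive cells and 0 in silent insensitive cells (up to 0.167). It was 1.42 CPM (0.754 to 2.42) in cold-sensitive cells, 0 in warm-sensitive cells (up to 0.136) and 0.025 CPM in insensitive cells. These intervals do not overlap between the paired classes, but the counts came from 1 cold-sensitive cell and 2 silent sensitive cells, so no difference between classes is read from them.

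Slc17a6 was in 24 cells without Gad1, Gad1 in 42 cells without Slc17a6, and both were in 11 cells. Of the 35 cells with Slc17a6, 11 had Gad1, 31.4% (16.9 to 49.3%), against 42 of the 61 cells without it, 68.9% (55.7 to 80.1%). Gad2 was in 45.7% of the cells with Slc17a6 and 60.7% of those without. Slc32a1 was in 2 of 35 cells with Slc17a6, 5.71%, and in 11 of 61 without, 18%. Slc32a1 itself was low, with a count under 10 CPM in 26 of the 39 cells that had any.

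Cells with both signals had a lower median of Slc17a6. The 16 cells with Slc17a6 and neither Gad gene had a median of 381 CPM, from 12.6 to 1043 CPM. The 19 cells that also had Gad1 or Gad2 had a median of 126 CPM, from 31.9 to 410 CPM. The 8 cells with Slc17a6, Gad1 and Gad2 together had a median of 90.9 CPM and a highest value of 152 CPM. The overlap thus had the lower median, though the ranges overlap. The median number of genes read was 4912.5 in these 8 cells, 4356 in the 19 and 3649.5 in the 16, and whether some samples hold RNA of more than 1 cell was not tested. Of the 16 cells with Slc17a6 alone, 1 was silent sensitive, none silent insensitive, 5 warm-sensitive, 1 cold-sensitive and 5 insensitive, and 4 had an unknown class. A further 47 cells had Gad1 or Gad2 without Slc17a6, and 14 had none of the 3 genes, with a median of 3128 genes per cell.

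**Figure D4:**
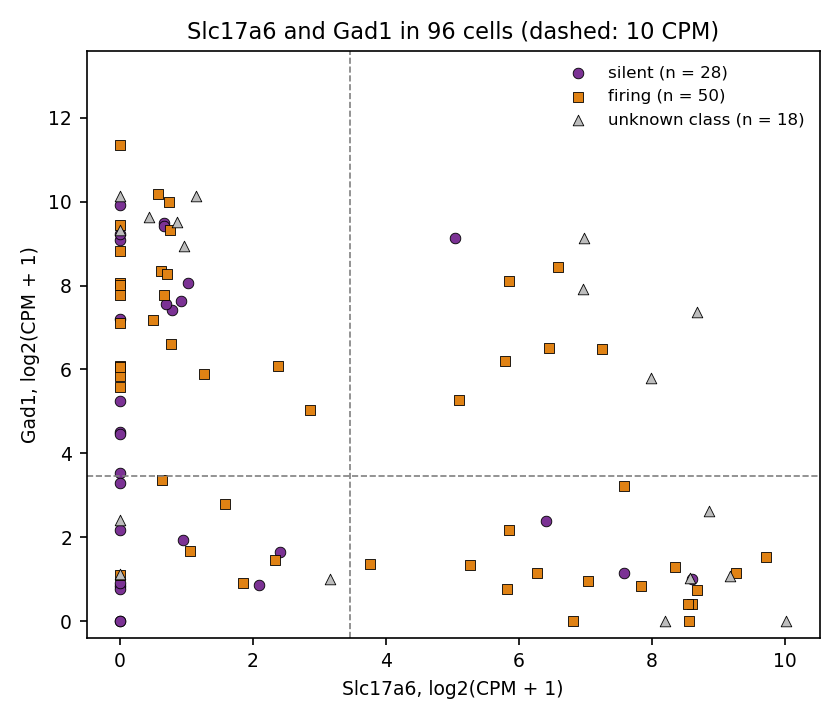
Slc17a6 against Gad1 in the 96 cells, both as log2 of CPM + 1; each point is 1 cell, and the lines mark 10 CPM. Of the 35 cells with Slc17a6 at 10 CPM or more, 11 also have Gad1 there, and 42 cells have Gad1 only.

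Gad1 was in 53.6% of silent and 56% of firing cells, a difference of means of -0.17 beside the -2.14 of Slc17a6. This Gad1 value pools opposite signs. It was 1.53 in silent insensitive against insensitive cells, as given above, and -2.68 in silent sensitive against warm-sensitive cells, at 30% of silent sensitive and 61.9% of warm-sensitive cells, or -3.31 within letters. Gad2 was in 64.3% of silent and 54% of firing cells, a difference of 0.78, and Slc32a1 in 14.3% of silent and 12% of firing cells. Leaving out the cells with none of Slc17a6, Gad1 and Gad2, the share with Slc17a6 was 18.2% in silent and 48.9% in firing cells. Cells were dropped here partly by their Slc17a6 value, so both shares rise by construction and are not read as support. Among cells without Slc17a6, Gad1 or Gad2 was in 75% of 24 silent and 82.1% of 28 firing cells.

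Related genes were read from 7 lists of 43 genes. The lists covered glutamate handling, vesicle acidification, GABA synthesis, the rest of the SLC17 family and other vesicular transporters, and held no glutaminase gene. Of the 43 genes 25 were eligible in silent against firing cells, 13 of them of vesicle acidification and 2 of GABA synthesis. Of the 25 genes, 2 were lower in silent cells by at least 1, which is 8% beside 15.3% of all eligible genes, and none was higher. Glul, the enzyme that makes glutamine from glutamate and is known from astrocytes, was in 39.3% of silent and 58% of firing cells, a difference of -1.52. Atp6v0e2, a subunit of the vacuolar ATPase, was in 60.7% of silent and 68% of firing cells, a difference of -1.02, and -0.70 within letters. The 13 eligible genes of vesicle acidification, 14 in the list, had a median difference of -0.40, close to the -0.29 of all eligible genes. The 5 eligible genes of glutamate metabolism, among them the aminotransferase genes Got1 and Got2, had a median of 0.038. The 3 eligible genes of glutamine transport and synthesis had a median of 0.36, with Slc38a1, a glutamine transporter of neurons, at 0.57. The glutamate uptake genes Slc1a2 and Slc1a3, known from astrocytes, had differences of -0.24 and -0.49. No gene of the rest of the SLC17 family or of the other vesicular transporters was eligible, and Slc17a5, a lysosomal sialic acid transporter, was at 10 CPM in 14.3% of silent and 10% of firing cells.

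**Figure D5:**
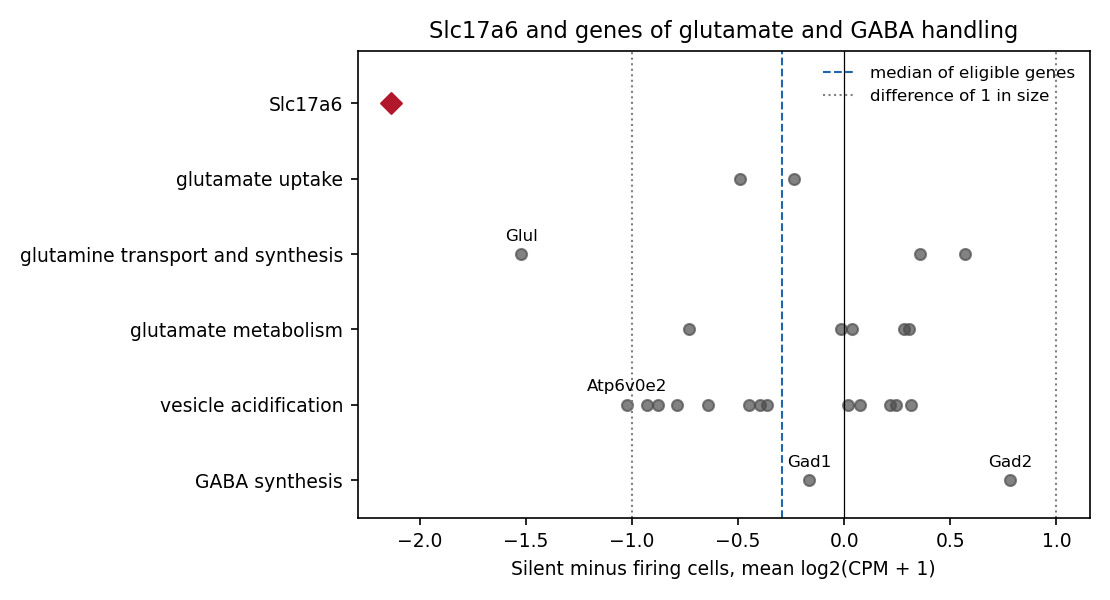
Difference of mean log2(CPM + 1), silent minus firing cells (horizontal axis), for Slc17a6 (diamond) and the 25 eligible genes of the lists (circles, 1 row a list); the dashed line is the median of 3481 eligible genes, -0.29. Slc17a6 lies at -2.14, and Glul and Atp6v0e2 are the listed genes below -1. Slc17a6 is eligible through the firing cells alone, so its place against the median is not read.

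In other comparisons the lists differed in how they stood to the bulk of genes. Between silent insensitive and insensitive cells 12 of 25 eligible listed genes, 48%, were lower by at least 1 beside 37.6% of all. Of these 12, 10 were among the 13 eligible genes of vesicle acidification, whose median was -1.18 beside -0.74 for all eligible genes. Between warm-sensitive and insensitive cells 15 of 25, 60%, were lower beside 67.6% of all, and only Gad1 was higher by at least 1, at 1.31, or 0.89 within letters, beside 0.522% of all. Of the vesicle acidification genes 11 of 13 were lower, with a median of -2.34 beside -1.36 for all eligible genes. Atp6v1f, a subunit of the ATPase's catalytic part, was in 38.1% of warm-sensitive and 87.5% of insensitive cells, a difference of -3.13. Slc25a12, a mitochondrial aspartate-glutamate carrier, was in 33.3% of warm-sensitive and 79.2% of insensitive cells, a difference of -3.37. Between silent sensitive and warm-sensitive cells 3 of 25 listed genes, 12%, were lower beside 13.9% of all, and 10, or 40%, were higher beside 30.8% of all. Between cold-sensitive and insensitive cells 8 of 25, 32%, were lower beside 35.4% of all, and 6, or 24%, were higher beside 13.9% of all. Both eligible genes of glutamate uptake, of 5 in the list, were among the 8, with a median of -2.40 beside -0.52 for all eligible genes. They were Slc1a2 and Slc1a3, which are also among the 7 astrocyte markers. The median of the 2 uptake genes eligible in warm-sensitive against cold-sensitive cells was 1.88 for warm-sensitive minus cold-sensitive cells, beside -1.56 for all eligible genes there. These values rest on 5 cold-sensitive cells. Slc1a2 reached 10 CPM in 50% of insensitive and 47.6% of warm-sensitive cells, and Slc1a3 in 37.5% and 28.6% of them. Both genes thus pass the filter through the groups where they are higher, so their place against the medians is not read. The part of astrocyte RNA in their values was not tested.

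Glial markers were read in silent and in firing cells. The summed level of 6 oligodendrocyte markers had a median of 401 CPM in silent cells, from 0.985 to 2158, against 130 CPM in firing cells, from 0.863 to 17331. The 7 astrocyte markers had a median of 678 CPM in silent cells, from 2.65 to 4508, against 831 CPM in firing cells, from 1.27 to 3886. The 9 microglia markers had a median of 618 CPM in silent cells, from 5.34 to 23912, against 504 CPM in firing cells, from 3.40 to 15460. The 3 endothelial markers had a median of 0 in silent and in firing cells, and Cldn5 was at 0 in every cell of both. Pan-neuronal markers summed to a median of 3597 CPM in silent and 4449 CPM in firing cells. The part of these levels in the Slc17a6 difference was not tested.

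Across all 96 cells the genes most like Slc17a6, by Pearson's r of log2(CPM + 1) among 2899 genes at 10 CPM in at least 25% of cells, were Ppp3ca, Rasgrf2, Zbtb11, Rnd3, Srp14 and Arhgap36. Predicted genes, clones and ribosomal protein genes were left out. Ppp3ca, a catalytic subunit of the phosphatase calcineurin, had r = 0.51 (Spearman's rho 0.49), and Rasgrf2, an exchange factor for Ras proteins, had r = 0.46 (rho 0.50). The other 4 had r from 0.43 to 0.46, the 99th percentile of all genes was 0.35 and the median 0.10. Gad1 had the lowest r of all ranked genes, -0.45 (rho -0.38). These are descriptions over cells that share depth and quality, and Slc17a6 itself had r = 0.22 with genes per cell and -0.33 with the Rn45s share. Of the 6, Rasgrf2 was in 14.3% of silent and 40% of firing cells, Arhgap36 in 10.7% of silent and 42% of firing cells, and Srp14 in 46.4% of silent and 74% of firing cells. Zbtb11 was in 25% of silent and 38% of firing cells, and Rnd3 in 21.4% of silent and 36% of firing cells. Ppp3ca was nearer between the groups, at 46.4% of silent and 56% of firing cells. Because the 6 genes were picked for their likeness to Slc17a6 in these same cells, lower silent shares partly follow from the choice. They are not read as support.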

How the data were processed

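Per the labels' protocols, 96 single preoptic neurons were recorded and then sequenced. The authors deposited 2 tables, one of whole-number counts and one of normalized signal values, whose scaling the labels do not state and which served here only as an alternative. The submitters' processing notes name FastQC, STAR, edgeR and mm10; annotation, counting and strand use are matters not given in the sources used here. Overlapping genes, such as Slc17a6 and Gm45072, and near-identical genes may share reads.

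The members and lists were chosen with earlier results of these data known. Groups follow the labels' temperature class. All 96 cells had at least 100000 counts and 1000 genes, and no pair was identical. CPM used the total of all genes. Differences are of mean log2(CPM + 1), and the difference within letters weights each letter's difference by its cell numbers. Counts of 0 were given a limit of 3 counts. Named genes were the members, the eligible genes of the lists, Gad1, Gad2 and Slc32a1, and the 6 genes most correlated with Slc17a6; Slc17a5, not eligible, was named after its values were seen.

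Alternatives were other detection limits, pseudocounts of 0.1 and 10 CPM, TMM and DESeq2 library sizes, totals without Rn45s, the deposited signal, thinning, cell filters, letters, the median gene, summed counts and leaving out each cell. Leaving out letter A, or cells with none of Slc17a6, Gad1 and Gad2, was added after seeing the data. The measures were tested on simulated data. Sequences and promoter windows are RefSeq's on GRCm38.p6, with all 3 genes matched by symbol. Software was edgeR 4.0.16 and DESeq2 1.42.0 in R 4.3.3, and pandas 2.3.3, numpy 2.4.6, matplotlib 3.10.9 and scipy 1.17.1 in Python 3.11.15.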

Additional observations from a re-analysis of the deposited data

Results flagged for a closer look

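In classes of 5 and 10 cells, single cells stood far from the others, measured as the gap to the next cell over the whole range. Slc17a6 was at 190.256 CPM in cold-sensitive cell 3, with a gap of 0.715 of the range, and at 387.418 CPM in silent sensitive cell 8, with a gap of 0.507. Slc17a8 was at 4.74727 CPM, or 2.52288 as log2(CPM + 1), in cold-sensitive cell 3, the only cell of its class with a count. It was at 6.09706 CPM, or 2.82722 as log2(CPM + 1), in silent sensitive cell 1, with gaps of 0.889 and 0.736. In all, 8 combinations of gene, class and scale were examined and 6 stood out. Chance flags about 1 in 20 groups of normally spread values, a rate that was not tested for values with many zeros, and a class with 1 cell above 0 has a gap of the whole range by construction.

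Outside the classified cells, the highest Slc17a6 value of the series, 1042.72 CPM, was in a cell of unknown class, above the highest classified cell at 843.943 CPM.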

How the results depend on the processing

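The lower Slc17a6 of silent cells kept its direction in all 16 alternatives and in all 78 omissions of 1 cell, from -2.40 to -2.01. Of the 16, the one without a cell filter repeats the main value, since all cells pass the filter. The one relative to the median gene rests on eligibility through the firing cells alone. The one without cells lacking Slc17a6, Gad1 and Gad2 drops cells partly by their Slc17a6 value. The one without letter A was added after the data were seen and drops the letter with equal shares. The difference moved by over 1.5 times only to -1.18 at a pseudocount of 10 CPM. Detection at 1 count gave shares of 46.4% in silent and 76% in firing cells. Thinning outside Rn45s, where 1 count of 100000 was enough, gave 59.2% in firing cells. Silent insensitive against insensitive cells moved only to -1.89 at that pseudocount. Silent sensitive against warm-sensitive cells was unsettled: -1.36 and -0.29 at pseudocounts of 0.1 and 10 CPM, -1.33 with totals without Rn45s, -0.47 thinned, -1.30 thinned outside Rn45s, -0.41 in cells with at least 3000 genes, 0.49 within letters, -1.26 relative to the median gene, 0.40 from summed counts, -1.42 without letter A, -0.41 without cells lacking Slc17a6, Gad1 and Gad2, and -1.54 to -0.49 without 1 cell. Warm-sensitive against insensitive cells gave -0.92 at a pseudocount of 10 CPM, -0.28 with DESeq2 size factors, -0.91 from the deposited signal, -0.79 thinned outside Rn45s, -0.63 within letters and -0.030 relative to the median gene. Cold-sensitive against insensitive cells gave -0.81 at a pseudocount of 10 CPM, -0.56 with at least 3000 genes, -0.76 relative to the median gene, -0.75 without cells lacking the 3 genes and -2.45 to -0.56 without 1 cell. Warm-sensitive against cold-sensitive cells ran through -0.26 (pseudocount 0.1), 0.13 (TMM), 0.99 (DESeq2), 0.23 (totals without Rn45s), 0.30 (deposited signal), 0.095 (thinned outside Rn45s), -1.34 (3000 genes), 0.18 (over 75% Rn45s left out), 1.04 (letters), 1.45 (median gene), -0.66 (summed), -0.68 (without cells lacking the 3 genes), and -0.84 to 1.06 without 1 cell. Silent sensitive against silent insensitive cells gave 1.70 (over 75% Rn45s left out), 1.66 (median gene), 3.35 (summed) and 0.27 to 1.33 without 1 cell. The cause of these shifts was not tested. Slc17a6 was not eligible between the 2 silent classes, so its value relative to the median gene is not read there. Slc17a6 was eligible through 1 class alone in silent sensitive against warm-sensitive, cold-sensitive against insensitive and warm-sensitive against cold-sensitive cells. The values relative to the median gene carry the same limit there. With no limit on low genes 3.90% of genes, in place of 15.3%, were lower by at least 1 in silent cells. Of the 6 genes most like Slc17a6, 4 were shared by Spearman's rho and 5 without Rn45s. No paired analysis was possible because the labels give no animal and the result comes from no test.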
